A study of Saccharomyces cerevisiae with 4 samples.

Results

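The genes described here encode the proteins of the small subunit of the cytoplasmic ribosome of budding yeast, Saccharomyces cerevisiae. They were chosen by systematic name, from RPS0A (YGR214W) to RPS30B (YOR182C), without the ubiquitin fusion gene RPS31, and not by their values. Of the 55 genes listed, 54 had a row among the 6207 gene rows of the deposited table, each with a value on every array, and RPS14A (YCR031C) was not analysed here. Of the 54 genes, 7 are single-copy and 47 belong to pairs of near-identical copies named A and B, with 23 pairs measured in both copies. Cells of the Loc1 knockout strain PSY3262 were set against cells of the wild-type strain PSY3259, both grown in YPD, a rich medium, at 30 °C and taken in early log phase at an optical density of 0.2 to 0.4. The Loc1 protein binds RNA in the nucleus and nucleolus, where it helps to build the large ribosomal subunit, and it also acts in the transport of ASH1 mRNA. Each of the 4 2-colour arrays held knockout RNA in 1 channel and wild-type RNA in the other, and per the labels the knockout carried Cy5 in replicates 1 and 4 but Cy3 in replicates 2 and 3. On array 4 the strain tag names PSY3262 in both channels, while the source names give a deletion and a wild-type culture. The labels do not say how the gene was deleted or whether the strain is 1 clone.

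A small subunit holds 1 copy of each protein around the 18S ribosomal RNA, and its proteins lie in a head and in a body with its platform, between which the mRNA is read. Most of these proteins are encoded by a pair of genes left by an ancient duplication of the genome, and the copies encode the same or nearly the same protein. In growing yeast the ribosomal protein genes are among the most highly transcribed and are controlled together, through the factors Rap1, Fhl1, Ifh1 and Sfp1 and nutrient signalling by TOR.

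All values are log ratios of knockout over wild type in the units of the deposited table, whose base is not stated. Folds are given as if the base were 10, the base that the values point to. The direction was not settled by the dyes. As deposited, columns of the same labelled orientation opposed each other, with r = -0.723 for arrays 1 and 4 and r = -0.612 for arrays 2 and 3, across 6191 genes, which are not independent replicates. Each column was therefore turned so that LOC1 (YFR001W) lay below 0, which turned arrays 2 and 4 and placed LOC1 at -1.20, -0.973, -1.07 and -1.31. The sign of LOC1 is thus set, only its size is measured, and "higher" and "lower" below are likely directions. With every sign turned, each rise becomes a fall and the reverse. A gene counts as risen or fallen at an adjusted p under 0.05 in limma's moderated test of the mean against 0, fitted over 6205 gene rows with Benjamini-Hochberg adjustment over all of them. In RNA of a whole culture, more mRNA per cell and more cells that carry it cannot be told apart.

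Genes of small-subunit proteins were mostly at or above wild type in the knockout. Of the 54 measured, 26 rose and 2 fell, or 48.1% and 3.70%. Without replicate 2, 3 or 4, 1 gene fell. Among all gene rows 22.5% rose and 21.7% fell. With the sign turned, the counts are 2 risen and 26 fallen, and with columns turned by the labelled dye 0 rose and 0 fell by limma, also at an unadjusted p under 0.05. The rises were small: those past the threshold ran from 0.0705 in RPS1B to 0.264 in RPS27A, or 1.18-fold to 1.84-fold if base 10. Of the 26 risen genes, 25 lay above 0 on every array, the exception being RPS29B at -0.00217 on array 1. The median over the 54 genes was 0.0731, against 0.0019 over all genes tested. The genes' medians were 0.0750, 0.102, 0.0526 and 0.0607 on arrays 1 to 4, against 0.00697, 0.0107, 0.00125 and -0.0119 for all genes, so they were higher on each array. The 54 means varied among themselves with an SD of 0.0807, less than the 0.127 over the means of all genes tested. The median SD between the arrays of 1 gene was 0.0445 (n = 4), a spread of single array values and not of means. The 77 measured genes of the large subunit and its stalk were much alike: 39 rose and 2 fell (50.65% and 2.60%), with a median of 0.0718.

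**Figure D1:**
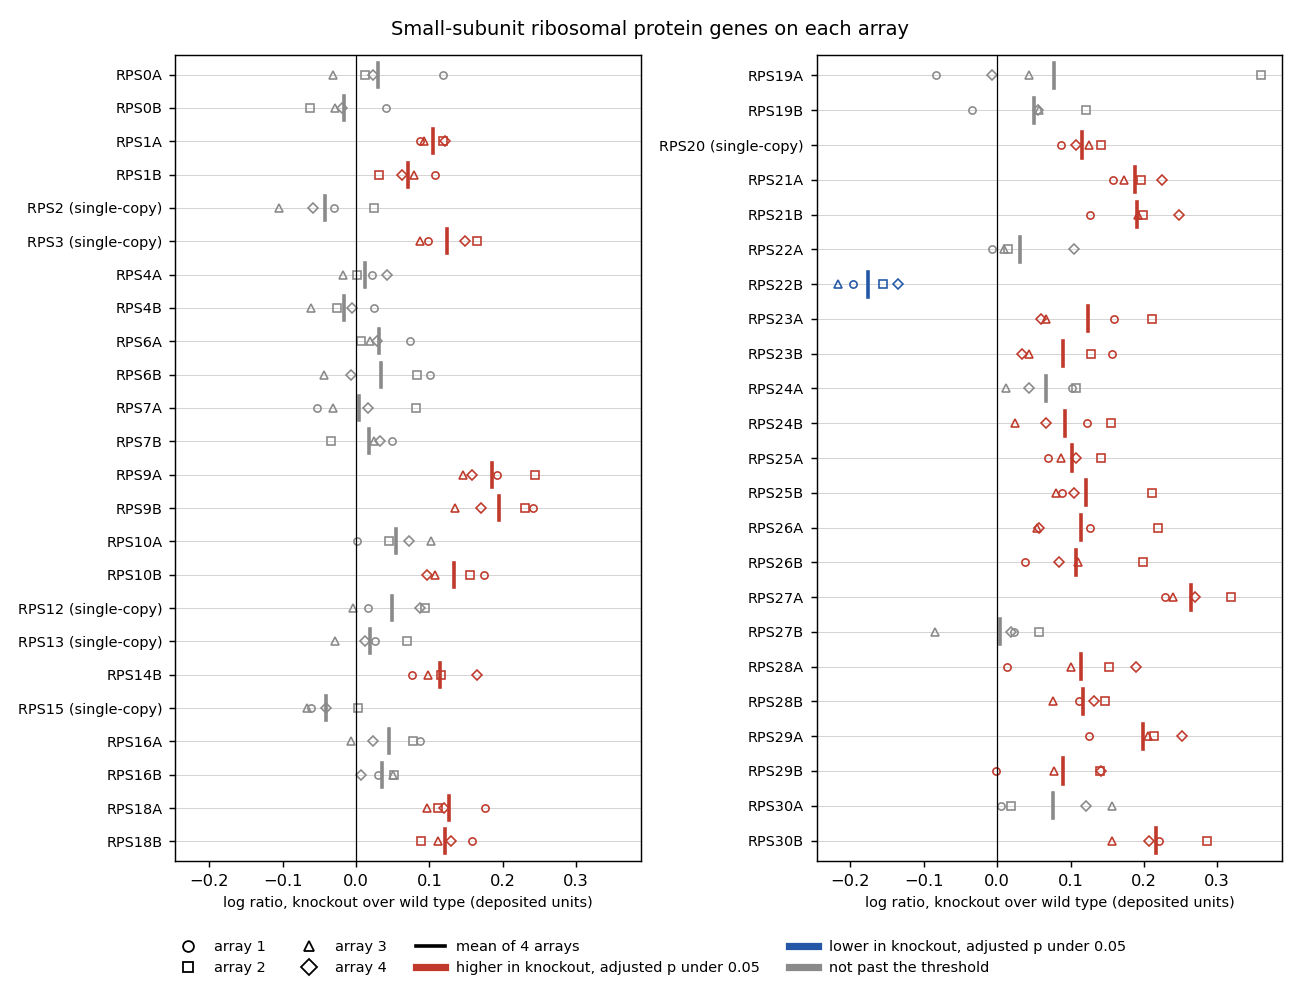
Log ratio of knockout over wild type (horizontal axis, deposited units) for 47 of the measured genes on arrays 1 to 4 (symbols), with the mean of the 4 arrays as a bar and the colour showing the call. RPS27A has the highest mean, RPS22B has the lowest, and RPS19A has its array 2 value of 0.36 far to the right of its other values.

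The highest mean was that of RPS27A (YKL156W), which encodes a zinc-binding protein of the body. RPS27A stood at 0.229, 0.318, 0.239 and 0.269 on arrays 1 to 4, a mean of 0.264 ± 0.0401 (SD, n = 4). That is 1.84-fold if base 10, and limma gave an adjusted p = 0.00019. Next was RPS30B (YOR182C), for a short basic protein close to the decoding centre, at 0.220, 0.285, 0.156 and 0.207, a mean of 0.217 ± 0.0533. Both genes stayed well above 0 on each array, and their lowest value was 0.156.

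RPS29A (YLR388W) encodes a small zinc-binding protein of the head. It had 0.125, 0.214, 0.206 and 0.252, a mean of 0.199 ± 0.0535, with array 1 the lowest. RPS9B (YBR189W), whose protein lines the entry of the mRNA channel, had 0.242, 0.231, 0.136 and 0.170, a mean of 0.195 ± 0.0502. Its copy RPS9A was at a mean of 0.185 ± 0.0443, and in both copies array 3 gave the lowest value. RPS21A and RPS21B encode a small protein of the body. The arrays gave 0.158, 0.197, 0.173 and 0.225 in RPS21A and 0.127, 0.198, 0.193 and 0.247 in RPS21B. The means were 0.188 ± 0.0290 in RPS21A and 0.191 ± 0.0495 in RPS21B (SD, n = 4 each), and array 4 gave the highest value in both. These 7 genes were the largest rises, and their adjusted p values in limma lay between 0.00019 and 0.00099.

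RPS22B (YLR367W) was the clear exception. It fell to -0.197, -0.156, -0.217 and -0.135 on arrays 1 to 4, a mean of -0.176 ± 0.0377 (SD, n = 4). That is 1.50-fold lower if base 10, and limma gave an adjusted p = 0.0010. Rps22 binds early in the central domain of the 18S RNA, and an intron of RPS22B carries a small nucleolar RNA.

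The single-copy genes are 7 in number, and 2 of them (28.6%) rose and 0 fell by limma, which gave the same counts at an unadjusted p under 0.05. That share is close to the 22.5% of all gene rows that rose. RPS3 (YNL178W) encodes a protein of the head at the mRNA entry. It had 0.0983, 0.165, 0.0879 and 0.148, a mean of 0.125 ± 0.0374, with adjusted p = 0.0045 in limma. RPS20 (YHL015W), for another head protein and a neighbour of Rps3, had 0.0867, 0.142, 0.125 and 0.107, a mean of 0.115 ± 0.0239, with adjusted p = 0.0046. Neither gene had a value under 0.0867 on any array.

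The other single-copy genes did not pass. RPS12, for a protein of the beak of the head, had 0.0167, 0.0942, -0.00367 and 0.0875, a mean of 0.0487 ± 0.0495. RPS13, for a protein of the platform side that contacts the large subunit, had 0.0259, 0.0695, -0.0284 and 0.0118, a mean of 0.0197 ± 0.0404. Both genes were at their highest on array 2 and below 0 on array 3. RPS15, for a head protein that reaches towards the decoding centre, had -0.0614, 0.00302, -0.0666 and -0.0406, a mean of -0.0414 ± 0.0317. RPS2, for a body protein at the mRNA entry, had -0.0298, 0.0245, -0.105 and -0.0584, a mean of -0.0421 ± 0.0540. In both of these genes array 2 was the highest and array 3 the lowest. Their adjusted p values in limma were 0.181 for RPS15 and 0.233 for RPS2.

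The single-copy genes lay lower than the paired genes as a group. Their median was 0.0197, against 0.0781 for the 47 paired genes, of which 24 rose and 2 fell (51.1% and 4.26%). The single-copy median was below the paired median on each array: 0.0167 against 0.0778 on array 1, 0.0695 against 0.112 on array 2, -0.0284 against 0.0571 on array 3, and 0.0118 against 0.0621 on array 4. The single-copy median was 0.0031 without replicate 2 and 0.0358 without replicate 3. On arrays 3 and 4 alone it was -0.00829, and on arrays 1 and 2 alone 0 of the 7 genes rose by limma (2 at an unadjusted p under 0.05). Large-subunit genes did not show this order in the medians of their means. On array 1 alone their single-copy median was slightly the lower, 0.0733 against 0.0756. Among genes of the large subunit and its stalk, 5 of 10 single-copy genes rose and 0 fell by limma (7 and 0 at an unadjusted p under 0.05), with a median of 0.0836. Of their 67 paired genes 34 rose and 2 fell, with a median of 0.0718. The risen shares of these single-copy and paired genes, 50% and 50.75%, were nearly equal. These are descriptions of lists of 7 and 10 single-copy genes, and the difference between them was not tested.

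**Figure D2:**
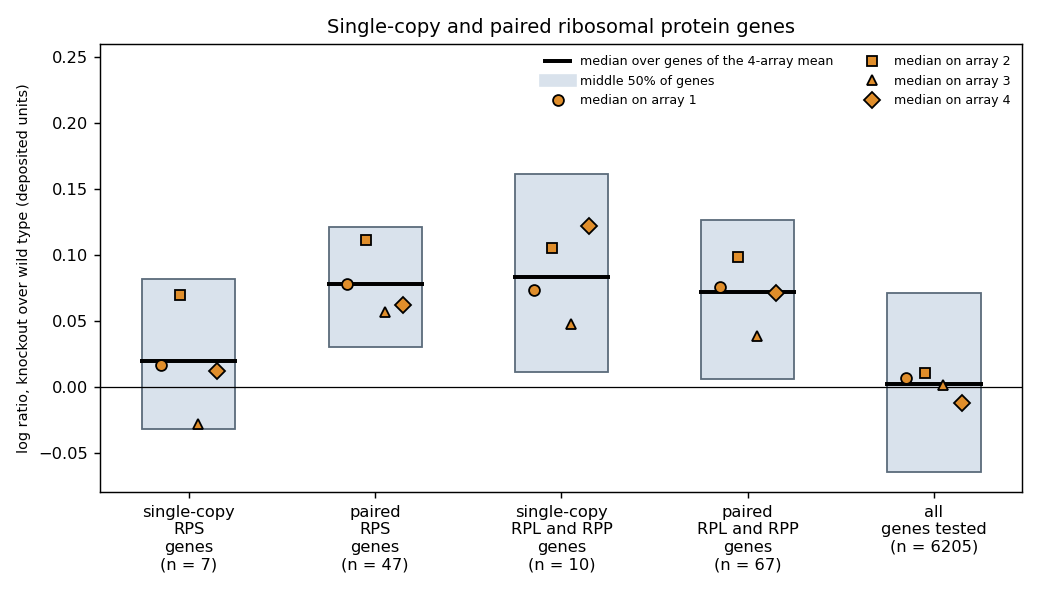
Log ratios of knockout over wild type (vertical axis, deposited units) by gene class: the box spans the middle 50% of the gene means, the line is their median, and the symbols are the class medians on arrays 1 to 4. Single-copy small-subunit genes have a median of 0.0197, against 0.0781 for paired small-subunit genes, and the median of all 6205 genes is close to 0.

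By place in the subunit, 12 of 21 head genes (57.1%) rose and 0 fell by limma. At an unadjusted p under 0.05 in limma the counts were 13 and 0. The head median was 0.101. These counts leave out ASC1 and RPS31, whose proteins also lie in the head but which are not on the list. ASC1 fell, with a mean of -0.185, and RPS31 lay below 0 on each array without passing. Of the 33 genes of the body and platform 14 rose (42.4%) and 2 fell (6.06%), with a median of 0.0336. The shares over all gene rows were 22.5% risen and 21.7% fallen, with a median of 0.0019. The body genes were the more spread out, with an SD of 0.0930 over their means against 0.0554 over those of the head genes, and they hold both the highest and the lowest mean. Among paired head genes, all 16 means lay above 0, from 0.0349 in RPS16B to 0.199 in RPS29A, and 10 of them passed (62.5%). Among the 31 paired body genes 25 means lay above 0 and 14 genes rose (45.2%). Their median was 0.0666, against 0.108 for paired head genes. The medians of head and body thus lay closer together among paired genes than among all. On arrays 1 and 2 alone 4 of 21 head genes and 10 of 33 body genes rose, so by these calls the body had the larger share. At an unadjusted p under 0.05 in limma the counts there were 11 of 21 and 14 of 33, with the larger share in the head. Without replicate 1, 12 head genes and 9 body genes rose. The head median lay above the body median on each array: 0.0778 in head genes against 0.0733 in body genes on array 1, 0.141 against 0.0775 on array 2, 0.0807 against 0.0187 on array 3, and 0.0972 against 0.0421 on array 4. The medians lay close together on array 1.

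Copies A and B are expressed from separate promoters, so each pair gives a comparison within the same RNA samples. The difference A minus B was taken on each array and added to the table of all genes, so that limma fitted 6228 rows together, of which 44.1% passed. The adjusted p values of the differences rest on all these rows, and no adjustment over the 23 pairs alone was made. In the 23 measured pairs, A was above B in 12 and below in 11, and 4 differences passed, 3 above 0 and 1 below 0. By the exact sign-flip permutation test over 4 arrays the smallest two-sided p is 0.125, so that test alone cannot pass. Probe sequences were not used here, and copies with near-identical sequence may share signal, which would draw their values together.

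The largest difference was in the RPS27 pair. RPS27B (YHR021C) had 0.0229, 0.0574, -0.0852 and 0.0182, a mean of 0.0033 ± 0.0615, far below the values of RPS27A given above. A minus B was 0.206, 0.261, 0.324 and 0.251, a mean of 0.261 ± 0.0487 (SD, n = 4) with adjusted p = 0.00027 in limma and exact sign-flip p = 0.125. The ranges of the copies did not overlap. If base 10, the knockout over wild-type ratio of RPS27A was 1.82-fold that of RPS27B, which does not compare the mRNA amounts of the copies.

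In the RPS22 pair the intronless copy RPS22A (YJL190C) had -0.00709, 0.0154, 0.00908 and 0.105, a mean of 0.0306 ± 0.0505, and did not pass. RPS22B lay below it on every array. A minus B was 0.190, 0.172, 0.226 and 0.240, a mean of 0.207 ± 0.0315 with adjusted p = 0.00045 in limma, and here too the copies did not overlap. RPS22A lies next to RPS14B in the gene order of the R64 assembly, and RPS14B rose with a mean of 0.114 ± 0.0378.

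In the RPS29 pair both copies rose. RPS29B (YDL061C) had -0.00217, 0.141, 0.0773 and 0.142, a mean of 0.0895 ± 0.0682, and array 1 was the lowest in both copies. A minus B was 0.127, 0.0736, 0.129 and 0.109, a mean of 0.110 ± 0.0255 with adjusted p = 0.0060 in limma. A lay above B on each array, although the ranges of the copies overlapped across arrays. RPS29B lost its call without replicate 2 (adjusted p = 0.112), 3 (0.0941) or 4 (0.144) and with a term for the labelled dye (0.0543).

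In the RPS30 pair the B copy was the higher. RPS30A (YLR287C-A) had 0.0054, 0.0193, 0.157 and 0.121, a mean of 0.0757 ± 0.0749, close to 0 on arrays 1 and 2 and high on arrays 3 and 4. A minus B was -0.215, -0.266, 0.00117 and -0.0856, a mean of -0.141 ± 0.122 with adjusted p = 0.0286 in limma. The exact sign-flip p was 0.25. The copies were level on array 3, and the call was lost without replicate 1 (mean -0.117, adjusted p = 0.115) or 2 (mean -0.0998, adjusted p = 0.0829).

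**Figure D3:**
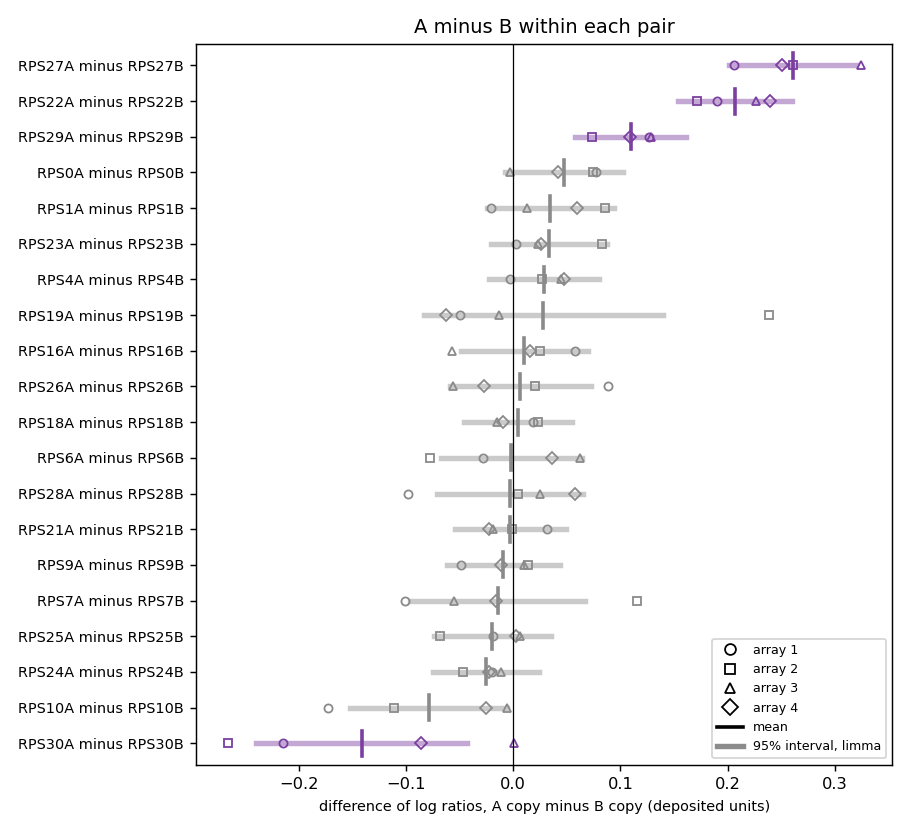
Difference of log ratios, A copy minus B copy (horizontal axis, deposited units), for 20 pairs ordered by the mean, with the 4 arrays as symbols, the mean as a bar and limma's 95% interval as a band. RPS27, RPS22 and RPS29 lie to the right of 0 on every array, RPS30 lies to the left on 3 arrays, and RPS19 has array 2 at 0.239 with its other arrays below 0.

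The remaining 19 differences did not pass, although with each column centred on its median 5 rather than 4 of the 23 passed. Their sizes reached 0.0788, in RPS10, and their 95% intervals in limma lay between -0.152 and 0.139, so that these arrays leave room for differences of that size. In RPS10, for a head protein near the mRNA entry, the difference was -0.173, -0.111, -0.00616 and -0.0251 and was carried mainly by arrays 1 and 2 (adjusted p = 0.0764 in limma). In 7 pairs exactly 1 copy passed the threshold, but in only 3 of these, RPS22, RPS27 and RPS30, did the difference between copies pass.

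By their calls, both copies rose in 9 pairs, exactly 1 copy passed in 7 and neither passed in 7. A pair in which neither passed does not show that its copies went together. In RPS0 and RPS4, which are such pairs, the means of A and B had opposite signs. RPS18, for a head protein that contacts the large subunit, is an example of a pair in which both rose. RPS18A had a mean of 0.126 ± 0.0345 and RPS18B of 0.122 ± 0.0294, with a difference of 0.0043 and a 95% interval of -0.0462 to 0.0548 in limma. RPS9 and RPS21 also rose in both copies, with mean differences of -0.0092 and -0.0029. In RPS26 and RPS28 the mean differences were as small, but the arrays disagreed: A minus B ran from -0.0558 to 0.0886 in RPS26 and from -0.0985 to 0.0577 in RPS28. Rps26 and Rps28 lie at the mRNA exit. RPS1, RPS23, RPS25 and RPS29 made up the 9. Rps1 lies on the platform, Rps23 at the decoding centre and Rps25 in the head. Of these 9 pairs, RPS9, RPS18, RPS21 and RPS25 kept both calls under each of the 9 alternatives fitted gene by gene, and in the other 5 at least 1 call was lost. RPS1B lost its call without replicate 1 (adjusted p = 0.130 in limma), 3 (0.130) or 4 (0.0935). It also lost the call with a term for the turning of a column or for the labelled dye. RPS23B lost it without replicate 1 (0.121) or 2 (0.0852) and with a term for the turning of a column, and RPS23A without replicate 1 (0.0574). RPS26A lost it without replicate 1 (0.0706) or 2 (0.0518), and RPS26B without 2 (0.0523) or 3 (0.0636). RPS28A lost it without replicate 2 (0.0559), 3 (0.0553) or 4 (0.0830).

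**Figure D4:**
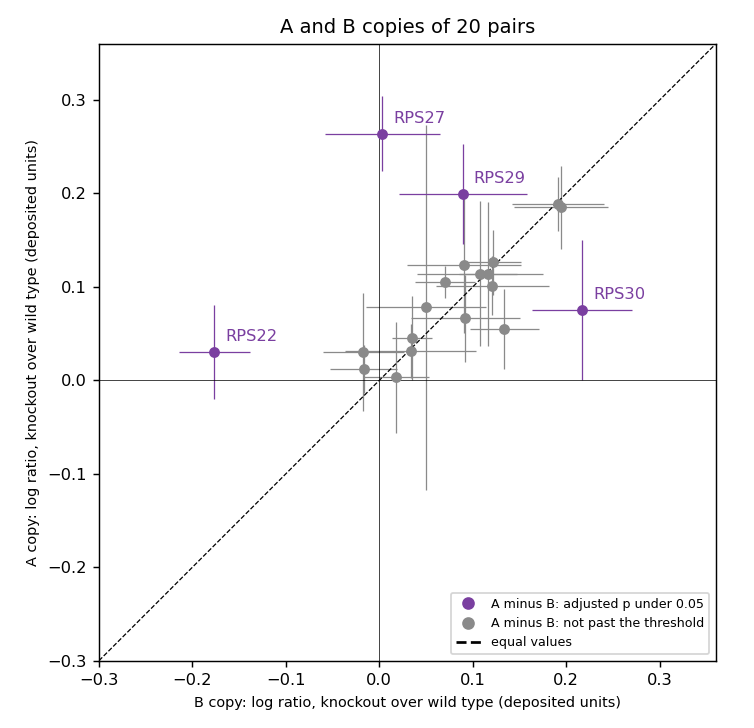
Mean log ratio of the A copy (vertical axis) against that of the B copy (horizontal axis), both knockout over wild type in deposited units, for 20 pairs, with error bars of 1 SD over 4 arrays and a dashed line of equal values. Most pairs lie along the line, and RPS27, RPS22 and RPS29 lie above it and RPS30 below it.

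Across the 23 pairs the means of A and B correlated with Pearson's r = 0.487 and Spearman's rho = 0.561, and without RPS22 and RPS27, left out after their values were seen, with r = 0.734 and rho = 0.673 over 21 pairs. These describe genes that share the same 4 arrays and whose copies may share signal. Neither copy passed in RPS0, RPS4, RPS6, RPS7, RPS16 and RPS19, among others. Rps6 is the small-subunit protein phosphorylated in response to TOR, and its genes had means of 0.0317 ± 0.0292 in RPS6A and 0.0336 ± 0.0697 in RPS6B. Rps0, Rps4 and Rps7 are proteins of the body, and the means of their genes lay between -0.0169 in RPS0B and 0.0305 in RPS0A. Rps16 and Rps19 are proteins of the head, and their genes lay between 0.0349 in RPS16B and 0.0781 in RPS19A. Without replicate 2 the mean of RPS19A was -0.0159. Among genes just outside the threshold were RPS24A at 0.0666 (adjusted p = 0.0648 in limma) and RPS30A (0.0810). Just inside were RPS29B at 0.0895 (0.0400), RPS1B at 0.0705 (0.0393) and RPS23B at 0.0904 (0.0318). RPS14B, whose protein lies on the platform and whose gene is known to be repressed by its own protein, had 0.0767, 0.116, 0.0978 and 0.165, above 0 on each array, and adjusted p = 0.0068 in limma.

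Of the other small-subunit proteins, the 2 encoded outside the list were at or below wild type. ASC1, for the WD-repeat protein of the head known as RACK1 in animals, fell to -0.228, -0.193, -0.204 and -0.113, a mean of -0.185 ± 0.0498 with adjusted p = 0.0012 in limma. No member of the list had a mean as low. RPS31, the ubiquitin fusion, had -0.0674, -0.00956, -0.0194 and -0.0200, below 0 on each array, and did not pass (adjusted p = 0.323).

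Of 11 genes for regulators of ribosomal protein transcription, 1 rose and 2 fell, or 9.09% and 18.2%, both shares below the 22.5% and 21.7% of all gene rows. CRF1, for a corepressor that competes with Ifh1 for Fhl1, rose by 0.0979 ± 0.0494 (adjusted p = 0.0171 in limma). SFP1, for an activator, fell by 0.0911 ± 0.0390 (adjusted p = 0.0174), and STB3, for a factor that binds promoters of ribosome assembly genes, fell by 0.126 ± 0.0255 (adjusted p = 0.0032). The other 8 did not pass, among them RAP1 at -0.0279 ± 0.0644, HMO1 at 0.0289 ± 0.0860 and DOT6 at -0.0145 ± 0.0240. Of 4 genes for dedicated partners of small-subunit proteins, 3 rose (75%) and 0 fell by limma, also at an unadjusted p under 0.05. The share of all gene rows that rose was 22.5%. YAR1, for a chaperone of Rps3, had 0.173, 0.226, 0.125 and 0.192 (adjusted p = 0.0011 in limma). FAP7, which acts with Rps14, had a mean of 0.110 ± 0.0328 (adjusted p = 0.0071). LTV1, which binds with Rps3, had a mean of 0.127 ± 0.106 with array 4 at -0.00851 (adjusted p = 0.0294). TSR2, for a chaperone of Rps26, had 0.0206 ± 0.0936 and did not pass.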

How the data were processed

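The values are log ratios that the authors deposited, 1 for each gene on each of 4 2-colour arrays. Neither the labels nor the table name the scanner, the background correction, the normalization or the log base. The deposited values were read as log10 because their sizes stop exactly at 2, which would be 100-fold in base 10 but only 4-fold in base 2. Intensities were not used, so the precision rests on the spread between the arrays, which limma moderates with that of all gene rows tested. Per the labels' protocols, RNA from 50 mL cultures was extracted with hot phenol, reverse-transcribed from a poly-T primer and labelled with Klenow.

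From these values, 3 control rows were left out and each column was turned by the sign of LOC1, with no further centring. The 6205 rows with a value on at least 3 arrays (2 had fewer) went into limma 3.58.1 (R 4.3.3, lmFit, then eBayes), and Python 3.11.15 made the tables. The fit was tried on simulated rows, drawn independently and with fewer changed genes than passed here. That trial checks the code and does not give the error rate in these data. The A minus B rows were fitted with the gene rows. Symbols were matched by locus tag in RefSeq's R64 gene table (5654 IDs matched). Of the measured members, 7 are counted in every class but not reported gene by gene. Values on every array are given for the 6 largest rises, 1 fall, 6 single-copy genes and the 4 pairs with the largest difference. RPS14B, RPS10, RPS19, RPS31, ASC1 and YAR1 were also given so, after their values were seen. The members and lists were chosen with earlier results of these data known.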

Additional observations from a re-analysis of the deposited data

Results flagged for a closer look

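In 77 sets of 4 array values (54 genes and 23 A minus B differences), 1 value stood apart from the other 3 by more than Dixon's 95% critical ratio, where about 1 in 20 sets would be so by chance. It was RPS19A minus RPS19B on array 2, at 0.239, against -0.0494, -0.0136 and -0.0630 on arrays 1, 3 and 4. RPS19A itself had -0.0839, 0.36, 0.0435 and -0.00733, with the largest SD of the 54 genes at 0.195, and RPS19B had -0.0344, 0.121, 0.0571 and 0.0557. Both copies were highest on array 2. The cause was not tested.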

How the results depend on the processing

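Each array sets knockout against wild type, so the test of the mean ratio against 0 is already paired within arrays, as is A minus B. With 1 group of arrays, no further pairing was made. Of the 26 risen genes, 18 stayed past the threshold under each of 9 alternatives fitted gene by gene, and 8 lost the call under at least 1. Leaving out 1 array gave 20 to 22 risen and 1 to 2 fallen genes over all members, 18 to 20 and 1 to 2 among paired genes, and 9 to 12 and 1 to 2 among body genes. It gave 3 to 4 A minus B calls, and centring each column on its median gave 5. With a term for the turning of a column or for the labelled dye, 1 gene fell over all members, 1 among paired and 1 among body genes. On arrays 1 and 2 only, 14 rose and 1 fell (14 and 1 of the paired genes, 0 risen of the single-copy). By place, 4 of the risen were head genes, and 10 risen and 1 fallen were body genes. At an unadjusted p under 0.05 in limma, 11 head genes and 14 body genes rose on these arrays. On arrays 3 and 4 only, 23 rose and 3 fell, and 1 single-copy gene fell. With columns turned by the labelled dye, 0 rose and 0 fell by limma. The median over all members lay between 0.0646 and 0.0787 with 1 array left out, and the single-copy median between 0.0031 and 0.0358. Some values changed sign when 1 array was left out, none of them called. RPS19A, whose mean of 0.0781 was the highest among the members not past the threshold, lay at -0.0159 without replicate 2 and at 0.132 at most. RPS7A ran from -0.0225 to 0.0222 and RPS27B from -0.0147 to 0.0328. So did A minus B in RPS6 (-0.0231 to 0.0232), RPS7 (-0.0577 to 0.0144), RPS9 (-0.0169 to 0.00403), RPS16 (-0.00542 to 0.0328), RPS18 (-0.00214 to 0.0108), RPS19 (-0.0420 to 0.0586), RPS21 (-0.0144 to 0.00364), RPS26 (-0.0209 to 0.0272) and RPS28 (-0.0230 to 0.0291). The cause was not tested.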
